A study of Mus musculus with 6 samples.

Results

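The transcription factors and cell-cycle regulators that carry a cortical progenitor through the intermediate progenitor stage to an excitatory neuron were examined in cultured mouse cortical neurons that lacked FMRP, the RNA-binding protein missing in fragile X syndrome. The set was Eomes, Neurog1, Neurog2, Neurod1, Neurod2, Neurod4, Neurod6, Insm1, Hes6 and Btg2. These 10 genes were taken by name from the 55367 rows of the count table, and each name was found. The set was chosen by the log2 fold-changes of Eomes and Neurog2, which were among the largest increases in these same libraries, so the differences between genotypes of the 10 genes are given as a description with no test. RNA-seq had been done on 3 wild-type (WT) and 3 Fmr1-KO libraries. Both genotypes were C57BL/6J mice. Cortex was taken from pups at postnatal day 1, dissociated, depleted of ACSA2+ astrocytes and myelin with microbeads, plated on laminin and poly-lysine, and kept for 2 days in vitro with no treatment. The labels name no sex, litter or culture. Fmr1 is disrupted in every cell of the KO animal, and the libraries are bulk RNA of a mixed culture, in which fewer cells of a type and less RNA per cell cannot be told apart.

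In the developing cortex, radial glia divide to give intermediate progenitors, which lie in the subventricular zone and divide again to give excitatory neurons. The passage is driven by basic helix-loop-helix (bHLH) factors that act in sequence: neurogenins in progenitors, then NeuroD factors as cells leave the cycle. Such factors bind DNA as dimers with E proteins at the E-box, CANNTG, and are held back by Id proteins and by Hes repressors downstream of Notch. Eomes, also called Tbr2, is the T-box factor by which intermediate progenitors are recognized.

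The genes are spread over 8 chromosomes in GRCm38, with Neurod1 and Insm1 both on chromosome 2 and Hes6 and Btg2 both on chromosome 1, and they share a compact structure. Insm1 and Neurog1 are single-exon genes, and Neurog2, Neurod1, Neurod2, Neurod4 and Neurod6 have 2 exons of which 1 is coding. Eomes spans chr9:118478212-118486132 on the plus strand and has 5 or 6 exons. Neurog2 spans chr3:127633135-127635631 on the plus strand, and Neurod6 spans chr6:55677822-55681263 on the minus strand. Upstream sequence is shown for a progenitor factor with the widest difference between genotypes (Eomes), for the neurogenin above it (Neurog2) and for a neuronal factor with a small difference (Neurod6), since these mark the ends of the cascade. Sequences are from RefSeq (GRCm38.p6), run 5′ to 3′ on the strand of the gene, and end just before the start of transcription. Capitals mark CANNTG or TATATAA on either strand.
Eomes, chr9:118477989-118478187, plus strand: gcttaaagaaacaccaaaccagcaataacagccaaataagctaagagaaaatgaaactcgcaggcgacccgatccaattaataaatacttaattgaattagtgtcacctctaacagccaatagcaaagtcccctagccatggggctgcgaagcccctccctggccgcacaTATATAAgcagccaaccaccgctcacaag
Neurog2, chr3:127632936-127633134, plus strand: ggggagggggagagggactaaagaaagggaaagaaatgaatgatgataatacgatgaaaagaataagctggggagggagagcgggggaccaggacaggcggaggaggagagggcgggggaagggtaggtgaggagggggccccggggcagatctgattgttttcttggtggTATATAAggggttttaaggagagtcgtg
Neurod6, chr6:55681265-55681463, minus strand: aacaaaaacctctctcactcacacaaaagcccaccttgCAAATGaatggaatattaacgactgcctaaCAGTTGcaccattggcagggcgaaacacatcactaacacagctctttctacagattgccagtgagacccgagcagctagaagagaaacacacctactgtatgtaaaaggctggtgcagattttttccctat
Windows of 250 bases before and 50 bases after each start were searched on both strands for 9 of the 10 genes. CANNTG lay in a window of 6 of the 9 genes and in 72.3% of 32851 promoter windows genome-wide. Eomes, Neurog2 and Btg2 had none, and Neurod6 had 2, first bases at -162 and -132. The neurogenin-type E-box CAGATG, which is contained in CANNTG, was present in 1 of the 9 genes (Neurod2) and in 17.2% of windows. TATATAA, chosen after the sequences had been seen, started at -30 in Eomes, -29 in Neurog2 and -31 in Neurod1, and occurred in 3.24% of windows. These are matches of letters in a window and say nothing of binding.

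The libraries held 30348556 to 35126207 counts. Fmr1, the targeted gene, had 4113, 3710 and 3656 counts in WT replicates 1, 2 and 3 and 1761, 1879 and 1972 counts in Fmr1-KO, so the libraries followed their labels while transcript reads remained in the KO. Of 16976 genes tested with edgeR, 42.6% passed an adjusted P of 0.05, with 20.7% higher and 21.9% lower in Fmr1-KO relative to WT. Of the 10 cascade genes, 9 had enough counts to enter the fit, and 8 of these were past that threshold on the higher side and 0 on the lower side. Since the set was chosen with this contrast in view, nothing is read from that count. The median log2 fold-change of the 9 genes was 0.40, and that of all genes tested was 0.006. Of the 9, 8 had every Fmr1-KO library above every WT library in CPM, beside 25.4% of all genes tested, and 0 had every Fmr1-KO library below, beside 26.3%. Levels are CPM, counts relative to a library total scaled by TMM, as mean ± SD over n = 3 libraries, and log2 fold-changes (Fmr1-KO relative to WT) carry their SE.

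**Figure D1:**
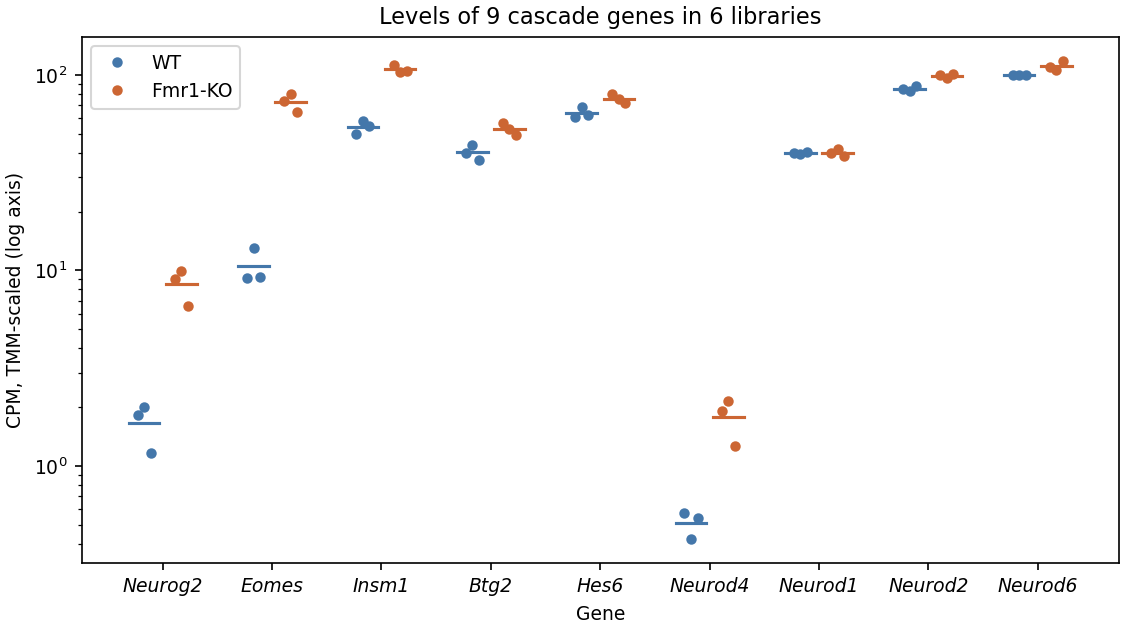
CPM (log axis) of 9 cascade genes in each library, WT in blue and Fmr1-KO in orange, with a bar at the mean of 3 libraries. Fmr1-KO points lie above all WT points for 8 genes, by far for Eomes, Neurog2 and Neurod4, while those of Neurod1 overlap.

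Neurogenins stand at the head of the cascade. Neurog2, the proneural factor that commits dorsal progenitors to an excitatory fate, had 63, 66 and 39 counts in WT and 293, 303 and 228 counts in Fmr1-KO. These were 1.81, 2.00 and 1.17 CPM against 9.01, 9.90 and 6.55 CPM. Every Fmr1-KO library lay above every WT library, and replicate 3 was the lowest of each genotype. The mean was low in both genotypes, 1.66 ± 0.435 CPM in WT and 8.49 ± 1.73 CPM in Fmr1-KO, a log2 fold-change of 2.34 (SE 0.17). Neurog1, its close relative, had 1, 1 and 1 counts in WT and 2, 1 and 0 counts in Fmr1-KO. All 6 libraries were under a floor of 3 counts, so no fold is given and Neurog1 was not detectable above that floor at this depth.

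Among the intermediate progenitor factors, Eomes had the widest difference. It had 317, 433 and 310 counts in WT and 2405, 2448 and 2239 counts in Fmr1-KO. In CPM the WT libraries stood at 9.12, 13.1 and 9.29 and the Fmr1-KO libraries at 73.96, 79.97 and 64.35. The genotypes were far apart relative to their spread, although WT replicate 2 stood above the other WT libraries. The mean was 10.5 ± 2.25 CPM in WT and 72.8 ± 7.88 CPM in Fmr1-KO, with a log2 fold-change of 2.79 (SE 0.09). Of all genes tested, 11 had a log2 fold-change of 2 or more. The set was chosen by the size of this increase, so nothing is read from how few genes reached it.

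Insm1, a zinc-finger factor that promotes the formation of intermediate progenitors, was already abundant in WT, at 1739, 1920 and 1836 counts. It had 3641, 3182 and 3639 counts in Fmr1-KO. Its level was 54.4 ± 4.06 CPM in WT and 107 ± 4.46 CPM in Fmr1-KO, a log2 fold-change of 0.98 (SE 0.05) with no overlap between genotypes. Insm1 was also the only one of the 10 genes among the targets of nonsense-mediated mRNA decay that the study named in N2A neuroblastoma cells. Btg2, an antiproliferative protein that marks progenitors in neurogenic division, had 1386, 1457 and 1230 counts in WT and 1853, 1616 and 1711 counts in Fmr1-KO. The genotypes did not overlap at 40.3 ± 3.62 CPM and 53.0 ± 3.91 CPM, and the log2 fold-change was 0.40 (SE 0.06). Hes6, a Hes family member that opposes Hes1 and favors differentiation, had 2109, 2263 and 2094 counts in WT and 2588, 2305 and 2500 counts in Fmr1-KO. It stood at 64.0 ± 4.02 CPM in WT and 75.6 ± 3.87 CPM in Fmr1-KO. The lowest Fmr1-KO library, at 71.9 CPM, was just above the highest WT library, at 68.4 CPM, and the log2 fold-change was 0.24 (SE 0.05).

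The NeuroD factors differed among themselves. Neurod4, a proneural factor that acts alongside the neurogenins, had only 20, 14 and 18 counts in WT and 62, 66 and 44 counts in Fmr1-KO. Its levels of 0.513 ± 0.0794 CPM in WT and 1.78 ± 0.46 CPM in Fmr1-KO did not overlap, and its log2 fold-change of 1.77 had the largest SE of the set, 0.25. Neurod1, which is turned on in intermediate progenitors and newborn neurons, had 1381, 1306 and 1352 counts in WT and 1291, 1281 and 1337 counts in Fmr1-KO. Its CPM values of 39.7, 39.5 and 40.5 in WT lay within the range of the Fmr1-KO libraries, 39.7, 41.8 and 38.4, and its log2 fold-change was 0.00 (SE 0.04). Neurod1 shares 201 bases of exon with Cerkl on the same strand, so reads from that stretch are uncertain. Of the 9 genes in the fit, Neurod1 alone had overlapping genotypes in CPM.

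Neurod2 and Neurod6, factors of postmitotic excitatory neurons, were abundant in both genotypes. Neurod2 had 2958, 2730 and 2918 counts in WT and 3234, 2941 and 3527 counts in Fmr1-KO, or 85.0 ± 2.43 CPM and 99.0 ± 2.68 CPM. Neurod6 had 3470, 3290 and 3348 counts in WT and 3564, 3244 and 4120 counts in Fmr1-KO, or 99.9 ± 0.41 CPM and 111 ± 6.40 CPM. Their log2 fold-changes were small, 0.22 (SE 0.04) for Neurod2 and 0.16 (SE 0.04) for Neurod6, and without Fmr1-KO replicate 3, the highest library, that of Neurod6 was 0.11. In raw counts the genotypes overlap for both genes, and their separation in CPM rests on the scaling to library size.

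**Figure D2:**
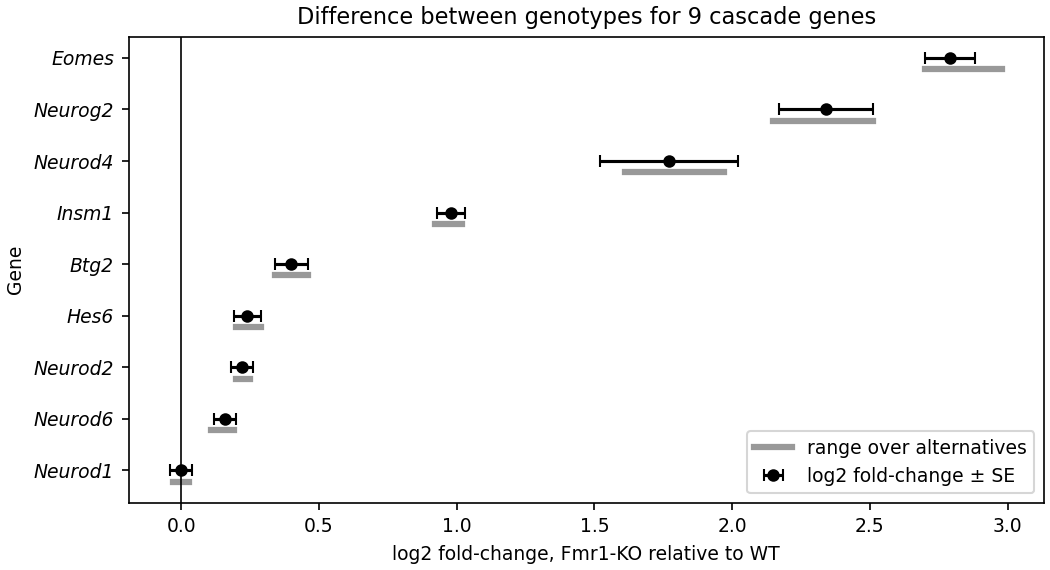
Log2 fold-change (Fmr1-KO relative to WT) of 9 cascade genes, with black bars for the SE and grey bars for the lowest and highest value over alternative processing. Eomes, Neurog2 and Neurod4 exceed 1.5 under each alternative, Insm1 lies near 1, the next 4 genes lie under 0.5 and Neurod1 lies at 0.

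The sizes of the differences were uneven over the cascade. Eomes, Neurog2 and Neurod4 had log2 fold-changes of at least 1, a size that 112 genes, or 0.66% of those tested, reached. Insm1 was just short of it, and 5 genes were under 0.5. Eomes and Neurog2 were chosen for the size of their increases, and Neurod4 rests on 14 to 66 counts. Nothing is therefore read from the share of all genes that reached this size. Counts of Eomes were also set beside those of the neuronal end of the cascade inside each library, which needs no scaling between libraries. Eomes was chosen for its increase, so these ratios restate that increase and are no separate support for it. Per 100 counts of Neurod6, Eomes had 9.14, 13.2 and 9.26 counts in WT and 67.5, 75.5 and 54.3 counts in Fmr1-KO. Per 100 counts of Neurod1, it had 23.0, 33.2 and 22.9 counts in WT and 186, 191 and 167 counts in Fmr1-KO. Neurod1 counts thus exceeded those of Eomes in each WT library and were exceeded by them in each Fmr1-KO library. By contrast, Neurod2 had 85.2, 83.0 and 87.2 counts per 100 counts of Neurod6 in WT and 90.7, 90.7 and 85.6 in Fmr1-KO, which overlap.

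Within the progenitor end, the genes did not scale together. Per 100 counts of Eomes, Insm1 had 549, 443 and 592 counts in WT and 151, 130 and 163 counts in Fmr1-KO. Neurog2 had 19.9, 15.2 and 12.6 counts per 100 of Eomes in WT and 12.2, 12.4 and 10.2 in Fmr1-KO. The Neurog2 ratio was lower in Fmr1-KO in each library, yet the gap between the lowest WT and the highest Fmr1-KO value was small beside the WT spread. Neurod4 per 100 counts of Neurog2 overlapped between genotypes, at 31.7, 21.2 and 46.2 in WT and 21.2, 21.8 and 19.3 in Fmr1-KO, on at most 66 Neurod4 counts a library.

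Levels can be set side by side between genes only per length, so CPM were divided by the kilobases of merged exon. In WT the order was Neurod6 (46.5 CPM per kb), Hes6 (35.4), Neurod2 (27.1), Insm1 (17.5), Btg2 (14.7), Neurod1 (14.6), Eomes (2.53), Neurog2 (0.745) and Neurod4 (0.153). Of these neighbours, Btg2 and Neurod1 overlapped in WT and the others did not. In Fmr1-KO the order was Neurod6 (51.8 CPM per kb), Hes6 (41.8), Insm1 (34.5), Neurod2 (31.5), Btg2 (19.3), Eomes (17.5), Neurod1 (14.7), Neurog2 (3.81) and Neurod4 (0.531). Insm1 thus stood above Neurod2 and Eomes above Neurod1, the reverse of WT, and Btg2 and Eomes were the neighbours that overlapped. With the longest transcript in place of merged exons, Eomes in Fmr1-KO stood at 20.4 CPM per kb, above Btg2. Within the NeuroD family, Neurod6 made up a mean of 52.6% of the summed level per kb in each genotype, and its genotypes overlapped. The share of Neurod2 was 30.6% in WT and 32.0% in Fmr1-KO, that of Neurod1 16.6% and 14.9%, and that of Neurod4 0.173% and 0.542%, each without overlap between genotypes.

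**Figure D3:**
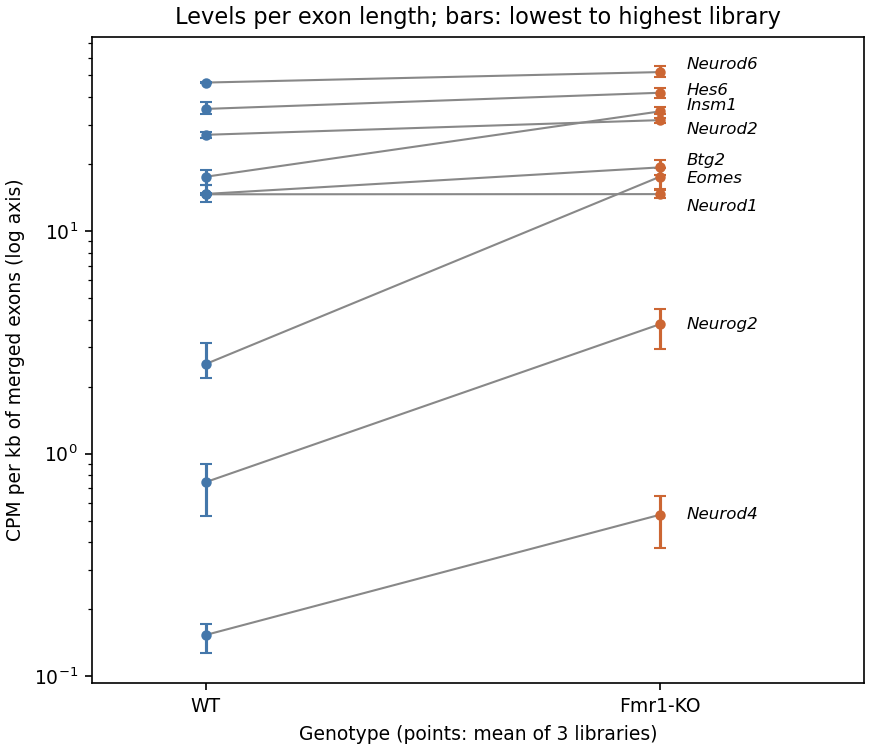
CPM per kb of merged exons (log axis) of 9 cascade genes in WT and Fmr1-KO, with points at the mean of 3 libraries and bars from the lowest to the highest library. The line of Eomes climbs from 2.53 to 17.5 and crosses that of Neurod1, and that of Insm1 crosses that of Neurod2.

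The spread inside each genotype was widest for Neurog2, Eomes and Neurod4. In WT, log2 CPM differed from the genotype mean by -0.45 to 0.29 for Neurog2 and by -0.18 to 0.34 for Eomes, but by at most 0.04 for Neurod2 and 0.02 for Neurod1. Counting error is wider for the low counts of Neurog2 and Neurod4. In Fmr1-KO, Insm1 (-0.04 to 0.07) and Hes6 (-0.07 to 0.08) varied no more than Neurod6 (-0.07 to 0.09). WT replicate 2 was the highest WT library for Neurog2, Eomes, Insm1, Btg2 and Hes6. Fmr1-KO replicate 3 was the lowest Fmr1-KO library for Neurog2 (-0.35), Eomes (-0.17), Neurod4 (-0.44), Btg2 (-0.10), Hes6 (-0.07) and Neurod1 (-0.06), and the highest for Neurod6 (0.09) and Neurod2 (0.03).

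**Figure D4:**
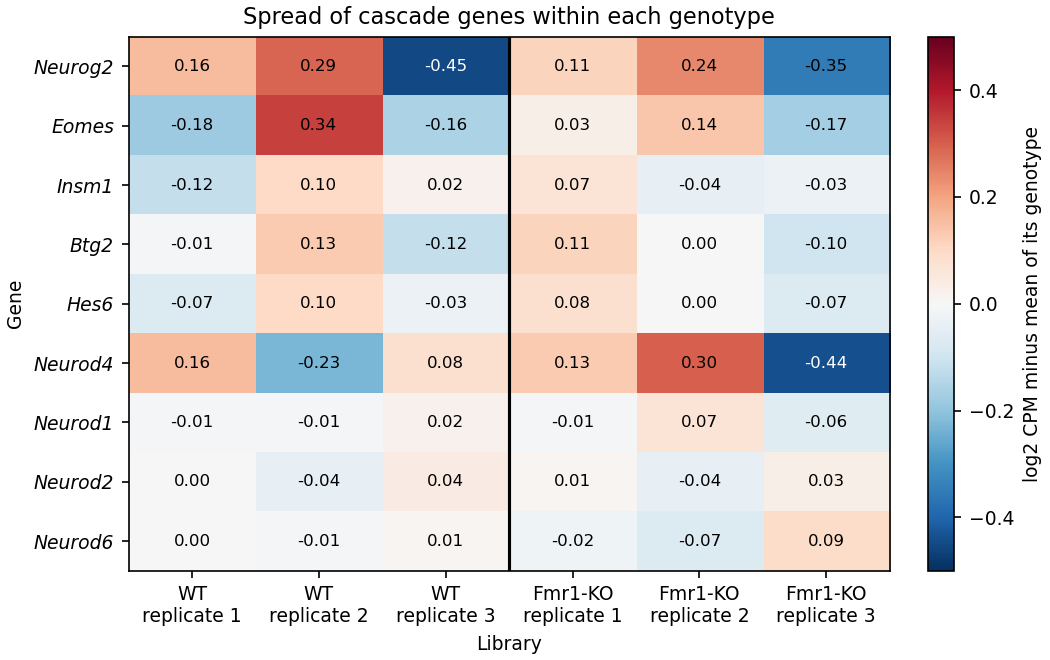
Log2 CPM of each cascade gene minus the mean of its genotype, by library (columns) and gene (rows), in red above and in blue below that mean. The upper rows (Neurog2, Eomes) and Neurod4 vary most, and Neurod1, Neurod2 and Neurod6 stay within 0.09 of their means.

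Genes linked to the cascade were taken from lists and tested in the same fit, each count given beside 20.7% higher and 21.9% lower among all genes. These lists, and those of cell types below, were chosen with earlier results of these data known. Their counts are therefore a description. Of 25 intermediate progenitor and neurogenin-linked genes, 24 were tested, 17 rose, 5 fell and 2 did not pass. Mfap4, an extracellular matrix protein gene, rose from 11.4 ± 0.369 to 28.9 ± 2.55 CPM, or 1.33 on the log2 scale (adjusted P 2.01e-12 by edgeR). Nhlh1, a bHLH factor of newborn neurons, rose from 1.35 ± 0.146 to 3.03 ± 0.0453 CPM, by 1.17 (adjusted P 1.82e-06 by edgeR). Mfng, a Fringe glycosyltransferase that modifies Notch, rose by 0.74 (adjusted P 5.55e-08 by edgeR). The 5 that fell were Ebf3 (-1.32), Prdm8 (-0.39), Nhlh2 (-0.28), Rnd2 (-0.21) and Cux2 (-0.16). Rnd2, a small GTPase of migrating neurons, is a known Neurog2 target, and Cux2 marks upper-layer neurons. Nhlh2 did not pass with DESeq2 (adjusted P 0.0572) or without Fmr1-KO replicate 2, where it stood at -0.19. Cux1 and Cdkn1c did not pass, at -0.01 and -0.14. The list median was 0.35.

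Of the 7 bHLH dimer partners and Id inhibitors, 4 rose and 3 fell. The E proteins, with which neurogenins pair, rose: Tcf3 from 103 ± 3.47 to 132 ± 6.26 CPM (0.36, adjusted P 1.06e-07 by edgeR), Tcf4 by 0.11 and Tcf12 by 0.11. Id4 rose by 0.18, and the other Id genes fell, Id3 by 0.91 on the log2 scale from 136 ± 7.14 to 72.1 ± 7.45 CPM (adjusted P 1.50e-11 by edgeR), Id1 by 0.79 and Id2 by 0.09. Id2 lost its call with library totals alone, without WT replicate 3 and without Fmr1-KO replicate 1, with adjusted P of at most 0.0751 by edgeR. Of 16 Notch pathway genes and Hes repressors, 4 rose, 3 fell and 9 did not pass, and the median was 0.06. Notch2 (0.35), Dll4 (0.21), Notch1 (0.16) and Rbpj (0.13) rose. Hey2 (-0.52), Hey1 (-0.35) and Jag2 (-0.22) fell. Dll4 lost its call under 9 of 13 alternatives (adjusted P up to 0.170 by edgeR), and 2 genes were left on the higher side without Fmr1-KO replicate 2. Hes1, at 6.51 ± 0.525 and 7.46 ± 0.994 CPM, and Hes5, at 11.0 ± 0.876 and 10.2 ± 0.870 CPM, did not pass (adjusted P 0.126 and 0.275 by edgeR).

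Of 15 genes of radial glia, both upstream factors and markers such as Nes, Vim and Prom1, 8 rose, 1 fell and 6 did not pass. Pax6, the dorsal progenitor factor that lies above Neurog2 and Eomes, rose from 82.8 ± 0.0644 to 119 ± 4.68 CPM, by 0.52 (adjusted P 1.38e-10 by edgeR). Prom1 (0.73) and Tead2 (0.41) also rose and Hopx fell (-0.40), while Sox2 stood at 181 ± 4.99 and 183 ± 3.11 CPM and did not pass (adjusted P 0.694 by edgeR). Per 100 counts of Pax6, Eomes had 11.0, 15.8 and 11.2 counts in WT and 63.6, 64.2 and 55.3 in Fmr1-KO. Of 16 genes of postmitotic excitatory neurons, downstream, 9 rose, 6 fell and Sox5 did not pass, with a median of 0.09. Pou3f2 (0.56), Nfib (0.30) and Fezf2 (0.29) rose most, and Tbr1, the T-box factor that follows Eomes, rose by 0.21 from 68.8 ± 3.12 to 79.6 ± 4.30 CPM (adjusted P 4.44e-04 by edgeR). The widest falls were those of 3 genes: Slc17a7, the vesicular glutamate transporter VGLUT1, went from 20.2 ± 0.498 to 3.69 ± 0.0893 CPM (-2.45, adjusted P 1.69e-15 by edgeR), Mef2c from 447 ± 5.39 to 121 ± 4.89 CPM (-1.88, adjusted P 1.36e-19 by edgeR), and Slc17a6 fell by 0.56 on the log2 scale. Of 11 proneural and Dlx factors of the GABAergic lineage, 6 rose, 3 fell and 2 did not pass. Gsx2 (0.88), Dlx2 (0.59) and Dlx1 (0.46) rose and Olig2 (-0.74), Olig1 (-0.71) and Lhx6 (-0.44) fell. Olig1 and Olig2 are also expressed in the oligodendrocyte lineage, where all 7 listed genes fell. The part of that lineage in their falls was not tested.

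**Figure D5:**
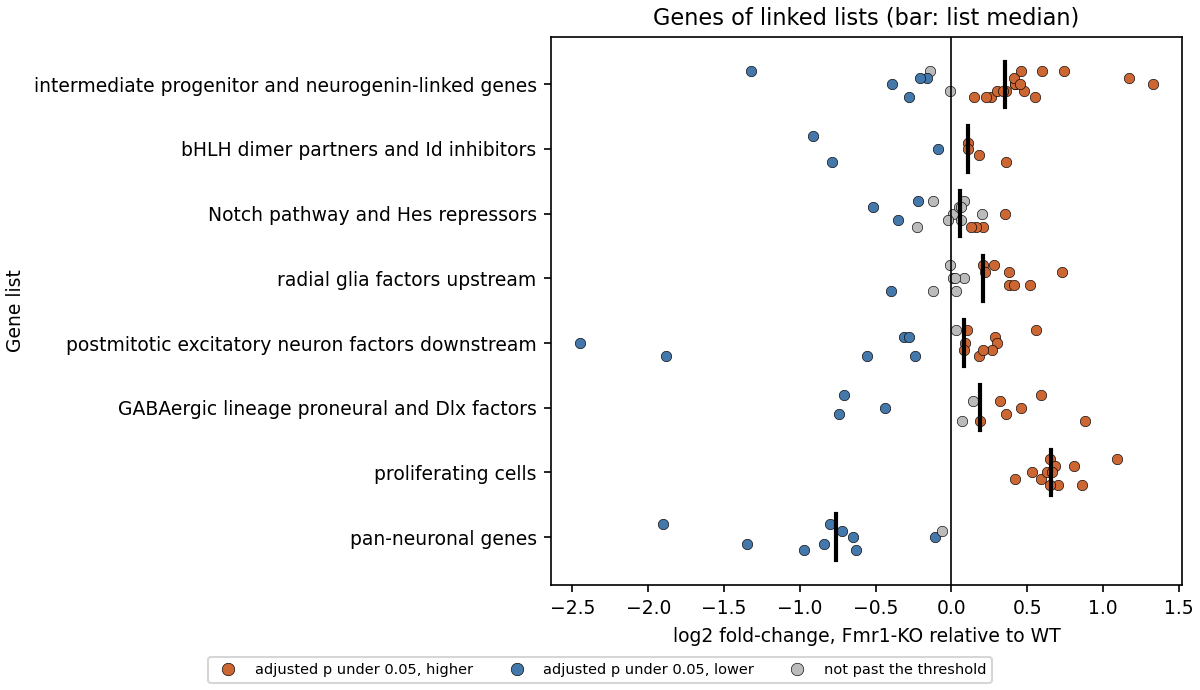
Log2 fold-change (Fmr1-KO relative to WT) of each tested gene in 8 lists, in orange where higher and in blue where lower at an adjusted p under 0.05, in grey otherwise, with a bar at the list median. Proliferation genes all lie to the right (median 0.65), pan-neuronal genes to the left (median -0.76), and most intermediate progenitor-linked genes to the right (median 0.35).

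Markers of cycling cells rose with the cascade genes, and many markers of other cells fell. The part of either in the cascade values was not tested. All 12 proliferation genes rose, with summed levels of 698 to 742 CPM in WT and 1195 to 1244.5 CPM in Fmr1-KO. Mki67 had 71.1, 98.1 and 71.1 CPM in WT and 140, 212 and 159 CPM in Fmr1-KO, highest in replicate 2 of each genotype, as Eomes was. Of the rest, only Top2a was also highest there, and Cdk1, Pcna, Mcm2, Mcm5 and Tyms were lowest in replicate 2 of each genotype. Mki67 had the largest log2 fold-change (1.09) and SE (0.11) of the 12, so the cascade genes were set beside the summed counts of all 12. Per 100 of these, Eomes had 1.23, 1.78 and 1.33 counts in WT and 6.19, 6.43 and 5.31 in Fmr1-KO, and Neurog2 had 0.244, 0.272 and 0.167 in WT and 0.754, 0.795 and 0.541 in Fmr1-KO. Both were apart in the same direction when set beside each of the 12 genes singly. Eomes and Neurog2 were chosen for large increases, wider than those of the 12 genes, so the direction of these ratios followed from that choice. Insm1 had 6.74, 7.91 and 7.88 counts in WT and 9.37, 8.35 and 8.63 in Fmr1-KO, a narrow gap, and its genotypes overlapped beside 3 of the 12 genes (Mki67, Top2a and Rrm2). Hes6 and Btg2 were lower in Fmr1-KO on this scale, Hes6 at 8.18, 9.33 and 8.99 against 6.66, 6.05 and 5.93, and Btg2 at 5.37, 6.00 and 5.28 against 4.77, 4.24 and 4.06. Neurod6 was lower too, at 13.5, 13.6 and 14.4 in WT and 9.17, 8.52 and 9.77 in Fmr1-KO, as were Neurod1 and Neurod2. Neurod4 was higher, at 0.0775, 0.0577 and 0.0773 in WT and 0.160, 0.173 and 0.104 in Fmr1-KO. Set beside the genes singly, Neurod1, Neurod2 and Neurod6 were lower for all 12. Neurod4 was higher for 11 and its genotypes overlapped for 1 (Mki67). The genotypes of Btg2 overlapped for 4 of them (Ccnb1, Birc5, Pcna and Tyms), and those of Hes6 for 1 (Pcna).

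Of 10 pan-neuronal genes, 9 fell, with sums of 3142 to 3230 CPM in WT and 2376 to 2426 CPM in Fmr1-KO (Map2 and Stmn2 were the most abundant), so neuronal genes were well expressed in each library. Astrocyte genes were abundant too despite the depletion, led by Gfap and Aqp4, at 4048 to 4163 CPM in WT and 3384 to 3730 CPM in Fmr1-KO, with 1 of 7 higher and 5 lower. All 7 oligodendrocyte lineage genes fell, with Mbp the most abundant, from 1734 to 1900 CPM in WT to 983 to 1053 CPM in Fmr1-KO. Olig2 is in both this and the GABAergic list. Of 6 microglial genes, 5 fell (3 without WT replicate 1), led by C1qa and Csf1r, with sums of 120 to 134 CPM in WT and 76.0 to 83.3 CPM in Fmr1-KO. Of 5 tested endothelial and mural genes, led by Col1a1 and Pdgfrb, 1 rose and 3 fell, with sums of 189 to 209 and 182 to 195 CPM. Both tested erythroid genes, Hbb-bs and Hba-a1, fell at sums of at most 2.34 CPM, although under several alternatives 1 or 0 did.

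Eomes is also made by neurons outside the cortical subventricular zone, and markers of these were read beside it. Of 7 Cajal-Retzius genes, 6 fell and Trp73 rose (0.24, lost under 5 of the alternatives), with sums of 244 to 272 CPM in WT and 119 to 145 CPM in Fmr1-KO. Reln, the glycoprotein by which these cells are known, fell from 171 ± 12.8 to 52.8 ± 9.56 CPM (-1.70, adjusted P 2.81e-13 by edgeR), while Calb2 was the next most abundant. Of 4 olfactory bulb projection neuron genes, led by Reln and Eomes, Reln and Cdhr1 fell, and Tbx21, a T-box factor of mitral and tufted cells, stood at 0.732 ± 0.332 CPM in WT and 0.533 ± 0.0497 CPM in Fmr1-KO without passing (adjusted P 0.247 by edgeR). Of 8 genes of cerebellar granule cells and unipolar brush cells, 4 were tested: Eomes itself, and Zic1 (0.45), Zic2 (0.15) and Lmx1a (0.65), which rose. Without Eomes, the other 7 genes summed to 61.9 to 67.6 CPM in WT and 82.7 to 84.4 CPM in Fmr1-KO. Gabra6 was at 0 in all 6 libraries, and Atoh1 had at most 2 counts. Of 5 dentate granule genes, led by Prox1 and Neurod1, Calb1 fell and 4 did not pass, with sums, Neurod1 left out, of 94.1 to 98.5 CPM in WT and 94.4 to 100.3 CPM in Fmr1-KO.

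The genes whose profile over the 6 libraries lay nearest to that of Eomes were sought among 12137 genes outside the cascade whose mean reached 5 CPM, as the Euclidean distance of log2 CPM after subtraction of the WT mean. Within the cascade, by the same measure, Neurog2 lay at a distance of 0.961 and Neurod4 at 2.13. The minimum of 5 CPM was not asked of the cascade genes, and Neurod4 had a mean of 1.14 CPM. Among the nearest of the other genes were Lhcgr (distance 2.04), Xist (2.17), Mfap4 (2.59) and Ccno (2.67). These were farther from Eomes than Neurog2 was, and their log2 fold-changes ran from 1.33 to 1.66 against 2.79 for Eomes and 2.34 for Neurog2. The distance largely follows the gap in log2 fold-change, and the set was chosen by the log2 fold-changes of Eomes and Neurog2. Nothing is therefore read from the nearness of Neurog2 to Eomes. Lhcgr had 6.27, 6.93 and 6.50 CPM in WT and 19.3, 21.9 and 20.9 CPM in Fmr1-KO. Mfap4 is also in the list of neurogenin-linked genes. Xist, the RNA that coats the inactive X chromosome, had 312, 307 and 298 CPM in WT and 825, 1017 and 905 CPM in Fmr1-KO. Y-linked genes, read because of Xist and after its values were seen, had counts in every library too: Ddx3y (-0.28), Kdm5d (-0.15) and Eif2s3y (-0.47) fell, and Uty stood at 11.7 ± 0.730 and 10.2 ± 1.22 CPM without passing (adjusted P 0.0679 by edgeR). Both kinds of transcript were thus present in each library in unequal amounts, and the part of sex makeup in the cascade values was not tested.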

How the data were processed

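The 6 RNA-seq libraries, 3 WT and 3 Fmr1-KO, were grouped by genotype as labelled. The values the authors deposited were unnormalized counts of reads for each gene. By their methods, single-end reads of a stranded poly(A) kit were trimmed with FastP, aligned to GRCm38.p6 with STAR (2.7.6a per the labels), and assigned to exons by featureCounts (Subread 2.0.1 in the submitters' processing notes, an earlier release in the methods) with reverse strandedness and summing over gene names. Isoforms are therefore not separated, and reads shared by same-strand neighbours are uncertain.

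Counts were fitted with edgeR 4.0.16 in R 4.3.3 (filterByExpr, TMM, glmQLFit, glmQLFTest, 2-sided, genotype as the only term, Benjamini-Hochberg adjustment over 16976 genes, threshold 0.05). The SE is the log2 fold-change divided by the square root of F. Exon lengths and coordinates came from GENCODE M21 (GRCm38), an earlier release than that of the authors. Libraries of the same genotype differed beyond sampling noise (chi-square per degree of freedom 2.19 to 3.72), unlike repeat sequencing of a single library. That difference does not show separate cultures. The paper describes the triplicate samples as independently derived, and each library was taken as a sample. The labels name no culture or litter for them, so P values measure the spread between these libraries. The fit was tested on simulated data.

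The 10 genes and all lists were chosen with earlier results of these data known. Named list genes are the up to 3 largest rises and falls past the threshold with a mean of 1 CPM or more, genes needed for counts of 5 or fewer, the 2 most abundant genes of each cell type list and those at 0 throughout, and the 5 nearest profiles to Eomes with a mean of 5 CPM or more. Sox2, Tbr1, Hes1, Hes5, Reln as a marker, Tbx21, Atoh1, the Y-linked genes and the motif TATATAA were named after values or sequences had been seen. Ratios to the proliferation genes were added after the data were seen. Some genes that these rules name are left out of the text. Alternatives were DESeq2 1.42.0, RLE or upper-quartile normalization, library totals, no or a stricter filter (5 CPM), leaving out each library, a replicate block, a minimum fold change of 1.2, and transcript length.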

Additional observations from a re-analysis of the deposited data

How the results depend on the processing

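The cascade genes kept their side of the threshold in all 116 values under the alternatives. The alternatives reuse the libraries by which the set was chosen, so this describes the processing and is no separate support. The 116 values leave out the minimum fold change of 1.2, which was read for all genes alone. Hes6, Neurod2 and Neurod6, at folds of 1.18, 1.16 and 1.12 in Fmr1-KO relative to WT, lie under that minimum. All cascade genes but Neurod1, which lay near 0 and changed sign, kept their direction. The alternatives moved Eomes from 2.70 (without WT replicate 1) to 2.98 (without WT replicate 2), Neurog2 from 2.15 to 2.51, Neurod4 from 1.61 to 1.97 and Neurod1 from -0.03 to 0.03 on the log2 scale. The stricter filter removed Neurod4, leaving 7 genes past the threshold. Of 1955 values of the other list genes, 59 lost a call, in 15 genes (Dll4, Id2, Nhlh2 and Trp73 among them), and 4 gained a call. With a minimum fold change of 1.2, 883 of all genes were higher and 1340 lower. Library totals alone gave 4207 higher and 3212 lower, and DESeq2 gave 2699 and 3211. Leaving out each library gave 2969 to 3307 higher and 3300 to 3569 lower. With the longest transcript as length, Eomes in Fmr1-KO was at 20.4 CPM per kb, and Hes6 at 40.7 in WT and 48.0 in Fmr1-KO, by construction of the shorter length. Over all genes in the fit, the deviations of same-numbered libraries had correlations of -0.0289, 0.0323 and -0.0147. Noise in genes with few counts pulls such values toward 0, so whether the numbers pair libraries was not settled. A replicate block gave 3488 higher and 3694 lower, with 8 and 0 cascade genes. It gave 47 and 21 genes of the pathway lists, and 19 and 39 of the cell type lists. Depth limits Neurog1, at 0 to 2 counts, and widens the error of Neurod4, at 14 to 66 counts.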
